A study of Mus musculus with 6 samples.

Results

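Transcripts of glucose breakdown and of the response to low oxygen were examined in the mesenteric arteries of mice, which feed the gut, with and without beta1 integrin in smooth muscle. The set holds 32 genes chosen by name: transporters and enzymes that take glucose to lactate, the subunits and oxygen sensors of hypoxia-inducible factor (HIF), and genes that this factor is known to induce. They were followed through every probe set (a group of array probes that reports 1 transcript) whose single gene symbol in the platform annotation was one of the 32, which gave 72 of the 45037 probe sets on the array. Of the 32 genes, 30 had such a probe set and 25 had one above the filter on low signal and were tested among 10654 genes. Eno1 (enolase) and Gpi1 (glucose phosphate isomerase) had none and were not analysed here. Slc16a3, Aldoc, Egln3, Car9 and Ankrd37 had only probe sets under the filter, set at a mean log2 level of 6.50 over all arrays, and are described without a test by gene. None of the 25 genes owed its place above the filter to 1 group alone, since 0 had a group mean under that level. Egln3, in contrast, was left out through its knockouts. Its probe sets had control means above that level (6.68 and 6.71) and knockout means below it (5.71 and 5.94).

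Each of 6 arrays measured total RNA from 1 numbered animal of mixed strain background (FVB, SVJ129 and C57BL/6 among others). The controls, animals 30, 74 and 75, carried loxP-flanked beta1 integrin alleles and no Cre. The knockouts, animals 72, 73 and 86, carried the same alleles and a Cre recombinase driven by the promoter of SM22alpha (Tagln), a smooth muscle gene. All 6 animals received 1 mg of tamoxifen a day over 14 days from the age of 5 weeks, and vessels were taken at 7 weeks after fat and lymph tissue had been cleared away, so the drug is shared by both groups. Deletion is thus limited to cells that use this promoter, whereas RNA came from the whole vessel. Transcripts of fat cells remained on all 6 arrays, at log2 levels of 13.40 to 14.10 for Fabp4 and 11.31 to 13.53 for Adipoq. Other fat cell markers were dimmer, down to 5.23 to 8.17 for Lep. The title of knockout 86 alone carries an F, and Xist stood at 11.83 on that array against 5.29 to 6.09 on the other 5, so 1 female lies in the knockout group only.

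Glycolysis converts glucose to pyruvate in the cytosol, and lactate dehydrogenase, a tetramer of A and B chains, interconverts pyruvate and lactate. The alpha subunits of HIF are hydroxylated by oxygen-dependent prolyl hydroxylases and degraded while oxygen is plentiful; when oxygen is scarce they pair with ARNT and switch on genes of glucose uptake, glycolysis and blood vessel growth. Much of this control acts on the protein, which an array of transcripts does not measure. Arterial smooth muscle is known for making lactate even when oxygen is ample.

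The B chain of lactate dehydrogenase was the single member that fell, and no member rose. In limma with Benjamini-Hochberg adjustment over all genes, 1 of 25 members (4.0%) had an adjusted p under 0.05, against 2.42% of all genes tested in either direction and 0.657% in the lower direction, a share that does not set the members apart. At an unadjusted p under 0.05 there were 6 members, all of them lower (21.4% of all genes reached that level, 11.5% lower and 9.86% higher). In the representing probe set, the one with the highest mean signal of each gene, 6 members had groups that did not overlap with knockouts lower (15.1% of all genes) and 1 with knockouts higher (13.0% of all genes, and 28.1% in either direction). Of the 25 members 20 were below the control mean, as were 6057 of all 10654 genes. The members' median log2 difference was -0.24, beside -0.05 over all genes. That median lay between -0.48 and -0.15 when 1 array was left out, the lowest value being the one without knockout 72. The plot of member levels shows how far the arrays of a group lay from each other.

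**Figure D1:**
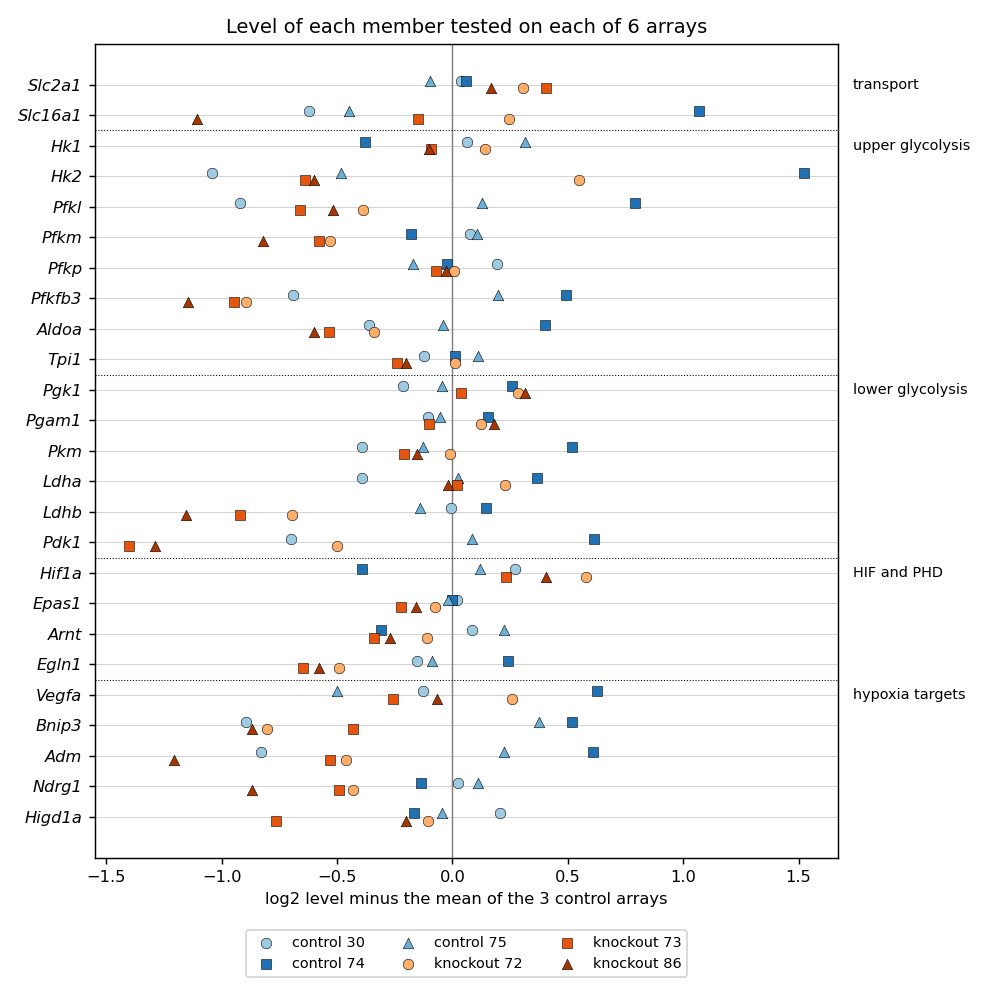
Level of each of the 25 members tested on each of 6 arrays, as log2(intensity + 1) minus the mean of the 3 control arrays, grouped by role (PHD, prolyl hydroxylase). Control arrays are blue and knockout arrays orange; the dark blue squares of control 74 are the highest of the 6 arrays in 13 members, and the orange points of Ldhb, Pfkm, Pfkfb3, Egln1, Epas1 and Ndrg1 lie wholly to the left of the blue ones.

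**Figure D2:**
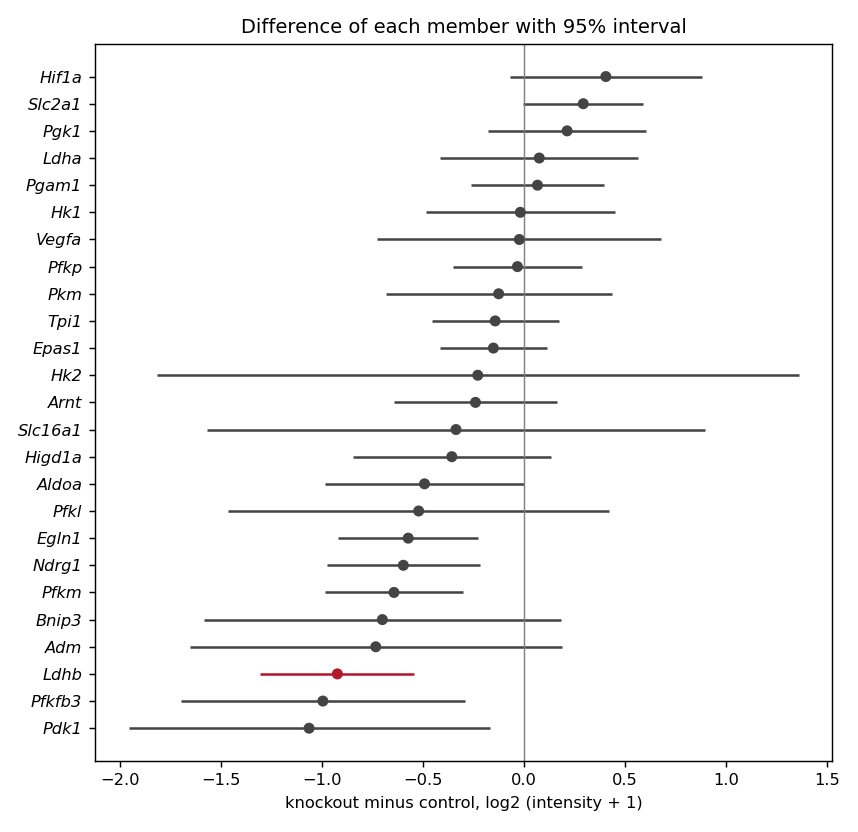
Difference of each of the 25 members tested, as the knockout mean less the control mean of log2(intensity + 1), ordered by size, with its 95% confidence interval from limma (3 arrays against 3). Ldhb, in red, is the member with an adjusted p under 0.05; the estimates of Pdk1 (-1.06) and Pfkfb3 (-0.99) are lower still, but with wider intervals.

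Ldhb encodes the heart-type B chain of lactate dehydrogenase. Its log2 level was 9.86, 10.02 and 9.73 in controls 30, 74 and 75 and 9.18, 8.95 and 8.71 in knockouts 72, 73 and 86. Every knockout lay below every control. Ldhb fell by 0.92 on the log2 scale (SE 0.16, 95% interval -1.30 to -0.54, adjusted p = 0.0388), which leaves 52.7% of the control level. The other 3 probe sets of the gene also had no overlap between the groups, at 51.8%, 58.2% and 64.0% of control. The call rests on all 6 arrays together: without any 1 of them Ldhb was not past the threshold, with differences between -1.04 and -0.81 and adjusted p-values from 0.0691 to 0.117. The suffix x of the representing probe set warns that its probes may also match other sequences. The probe set at 51.8% carries no such warning, and with it in place of the first the gene was again past the threshold (difference -0.95, adjusted p = 0.0407). In whole arteries, fewer cells of a type and less RNA per cell cannot be told apart.

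Ldha, the muscle-type A chain and a textbook HIF target, was not past the threshold. It stood at 12.18, 12.94 and 12.60 in the controls and at 12.80, 12.60 and 12.55 in the knockouts, so the groups overlapped. Its difference was 0.08 (SE 0.21, 95% interval -0.41 to 0.57, adjusted p = 0.861). Set within each array, Ldhb minus Ldha lay at -0.92, -0.94 and -1.14 from the control mean in the 3 knockouts, whereas the controls lay between -0.22 and 0.39. This relative difference, -0.999 on the log2 scale, reached the smallest value that an exact 2-sided permutation test of 3 arrays against 3 allows, p = 0.1 (0.15 after Benjamini-Hochberg adjustment over 3 isozyme pairs). The other pairs gave -0.61 for Pfkm minus Pfkp (exact permutation p = 0.1) and -0.21 for Hk2 minus Hk1 (exact permutation p = 1). Each gene of a pair entered by its representing probe set alone, and the other Pfkp probe sets had higher means in the knockouts. The pairs were picked with the results known, and no p of this size shows a difference between chains.

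The promoter windows of both chains were searched for the letters that HIF is known to bind. The windows below run from 250 bases before to 50 after the gene start in RefSeq's annotation of GRCm38.p6, 5′ to 3′ on the strand of the gene; capitals mark every ACGTG or GCGTG, the core of the hypoxia response element, on either strand. They are shown because they belong to the 2 chains of 1 enzyme, of which Ldhb is the member past the threshold. The first Ldha window lies at chr7:46845554-46845853 (plus strand) and the Ldhb window at chr6:142507908-142508207 (minus strand).
Ldha: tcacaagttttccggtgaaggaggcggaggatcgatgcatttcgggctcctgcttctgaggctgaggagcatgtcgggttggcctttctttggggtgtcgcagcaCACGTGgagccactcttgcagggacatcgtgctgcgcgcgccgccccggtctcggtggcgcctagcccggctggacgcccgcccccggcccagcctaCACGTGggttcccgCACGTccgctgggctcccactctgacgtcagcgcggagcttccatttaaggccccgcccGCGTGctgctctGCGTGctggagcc
Ldhb: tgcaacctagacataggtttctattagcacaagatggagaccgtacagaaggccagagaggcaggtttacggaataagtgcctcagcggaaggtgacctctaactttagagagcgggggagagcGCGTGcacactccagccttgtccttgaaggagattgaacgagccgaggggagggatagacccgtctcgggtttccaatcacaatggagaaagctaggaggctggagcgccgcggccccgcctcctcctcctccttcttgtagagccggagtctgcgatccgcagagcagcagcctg
The Ldha window held the core at 7 positions and the Ldhb window at 1; a second Ldha window held 2. Where ACGTG is preceded by C the letters CACGTG read the same on both strands and count as 2 positions, as they do in the Ldha window. Of the 32 genes 30 had such windows, and 36 of their 44 windows (81.8%) held at least 1 core, against 61.8% of the windows of all genes tested and 43.8% of all windows of that length. With ACGTG alone the shares were 54.5%, 25.3% and 19.6%. The members were listed as glycolytic and hypoxia genes to begin with, and a match of letters is a description, not a bound site, as its absence from a window says nothing of the factor.

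Among the transporters, Slc2a1, which encodes the glucose transporter GLUT1, was the single tested member whose knockouts all lay above the controls. It stood at 10.02, 10.04 and 9.88 in the controls and at 10.29, 10.38 and 10.15 in the knockouts. The gap between the groups was narrow, and the difference of 0.29 (SE 0.12, adjusted p = 0.235) did not pass the threshold. A second probe set had no overlap either, at 134% of control, and in the third, at 138%, control 74 overlapped with the knockouts. Slc16a1, the lactate and pyruvate transporter MCT1, ranged from 8.61 to 10.30 in the controls, with control 74 highest, and from 8.13 to 9.48 in the knockouts (difference -0.34, SE 0.52). Slc16a3, the lactate exporter MCT4 and a HIF target, was near the low end of the array at 2.49, 3.18 and 2.68 in the controls and 4.63, 3.61 and 4.77 in the knockouts. All 3 knockouts lay above the controls (exact permutation p = 0.1, the smallest possible), at a level under the filter where a log2 difference depends on the added constant.

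The steps from glucose to triose phosphate gave 8 tested members, all 8 with a mean below that of the controls, with differences between -0.99 and -0.02, and 0 past the threshold. Pfkm, the muscle-type phosphofructokinase, stood at 9.20, 8.94 and 9.23 in the controls and at 8.59, 8.54 and 8.30 in the knockouts. Its groups did not overlap, with a tight spread in both (SD 0.16 and 0.16, n = 3), and its difference was -0.64 (SE 0.15, adjusted p = 0.0747). The platelet-type Pfkp differed by -0.03 (SE 0.14) and the liver-type Pfkl by -0.52 (SE 0.40, adjusted p = 0.483), and both overlapped. Skeletal muscle markers, given beside the muscle-type Pfkm, were low, with 2 of 8 above the filter. Their sums overlapped between the groups, at 342 to 697 intensity units in the controls and 390 to 536 in the knockouts. Their part in the result was not tested.

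Pfkfb3 makes fructose 2,6-bisphosphate, the activator of phosphofructokinase, and is induced by HIF. It stood at 9.12, 10.31 and 10.01 in the controls and at 8.92, 8.87 and 8.67 in the knockouts. The groups did not overlap, although control 30 lay much closer to the knockouts than to the other controls. The difference of -0.99 (SE 0.30, adjusted p = 0.13), or 50.2% of control, was not past the threshold. Of the fits with 1 array left out, it was past the threshold only without control 30 (-1.34, adjusted p = 0.0292). Over 20 alternative limma fits Pfkfb3 passed in 3. Its differences there ran from -1.51 to -0.67, with adjusted p-values up to 0.339. The inner of its 2 promoter windows, at chr2:11502041-11502340 on the minus strand, is shown because it holds 4 core positions (capitals as above), CACGTG included, beside 1 in the other window.
Pfkfb3: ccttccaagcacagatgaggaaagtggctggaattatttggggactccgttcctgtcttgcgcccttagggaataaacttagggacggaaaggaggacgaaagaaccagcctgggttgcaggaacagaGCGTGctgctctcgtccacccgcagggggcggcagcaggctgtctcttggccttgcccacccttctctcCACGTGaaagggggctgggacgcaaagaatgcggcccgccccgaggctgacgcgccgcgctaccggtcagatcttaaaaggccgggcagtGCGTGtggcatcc

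The hexokinases, which trap glucose in the cell, were not separated by group. Hk1, the form of most tissues, differed by -0.02 (SE 0.20). Hk2, the insulin- and HIF-inducible form, stood at 7.74, 10.31 and 8.30 in the controls and at 9.33, 8.15 and 8.18 in the knockouts. Control 74 and knockout 72 were the high arrays, so that the difference was -0.23 (SE 0.67) with all arrays and 0.53 without control 74. Aldoa, the main aldolase outside liver, was at 12.41, 13.17 and 12.73 against 12.43, 12.23 and 12.17, with overlap by knockout 72 alone (difference -0.49, SE 0.21, adjusted p = 0.234). All 5 Aldoa probe sets carry the suffix x and lay at 68.6% to 73.6% of control. Tpi1 (triose phosphate isomerase) differed by -0.14 (SE 0.13). Aldoc, the brain aldolase, was under the filter, and its pair of probe sets pointed opposite ways, to 76.1% and 119% of control.

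In the later steps of the pathway, 3 enzymes between triose phosphate and pyruvate had overlapping groups and small differences. Pgk1 (phosphoglycerate kinase) differed by 0.21 (SE 0.16), Pgam1 (phosphoglycerate mutase) by 0.07 (SE 0.14) and Pkm (pyruvate kinase of muscle and most other tissues) by -0.12 (SE 0.24). Their 95% intervals ran from -0.18 to 0.60, from -0.26 to 0.40 and from -0.68 to 0.43. The 3 intervals include 0, and they do not reach a doubling or a halving (1 or -1 on the log2 scale).

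Pdk1, the HIF-induced kinase that switches off pyruvate dehydrogenase and so keeps pyruvate out of the mitochondria, had the lowest difference of the 25 members. It stood at 8.58, 9.90 and 9.37 in the controls and at 8.79, 7.88 and 7.99 in the knockouts. Knockout 72 lay above control 30, and the difference of -1.06 (SE 0.38, 95% interval -1.96 to -0.17) did not pass the threshold (adjusted p = 0.176). Its other 3 probe sets were at 57.3% to 72.4% of control, each with overlap.

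Of the HIF subunits, Hif1a was the one with a higher mean in the knockouts. Its log2 level was 11.98, 11.32 and 11.83 in the controls and 12.29, 11.94 and 12.12 in the knockouts. Control 30 lay just above knockout 73, and the difference was 0.41 (SE 0.20, adjusted p = 0.293). The other Hif1a probe set above the filter overlapped at 124% of control, as did those under it at 153% and 461%. Epas1, the HIF-2 alpha subunit that is prominent in endothelium, was among the brightest members at 13.41, 13.39 and 13.37 against 13.32, 13.17 and 13.24. The groups did not overlap, but the difference was small at -0.15 (SE 0.11, adjusted p = 0.472), and the second, dimmer probe set stood at 112% of control with overlap. Arnt, the partner of both, differed by -0.24 (SE 0.17, adjusted p = 0.452), and its other probe sets overlapped at 64.2% to 92.5% of control. Endothelial markers, given beside Epas1, were lower in the knockouts for 8 of 8 genes. Of these, 5 had no overlap (15.1% of all genes tested) and 0 were past the threshold. Their sums were 19834 to 22635 in the controls and 13278 to 17319 in the knockouts, and their part in the result was not tested.

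Egln1 encodes PHD2, the main oxygen sensor of the pathway. It stood at 10.43, 10.83 and 10.49 in the controls and at 10.09, 9.94 and 10.01 in the knockouts. The knockouts lay close together (SD 0.08, n = 3) and below every control, with a difference of -0.57 (SE 0.15, 95% interval -0.92 to -0.23) and an adjusted p of 0.0975. Its dimmer probe set overlapped and stood at 90.3% of control. Egln3 (PHD3), itself a strongly HIF-induced gene, was under the filter: one probe set stood at 6.31, 6.71 and 7.01 in the controls and 6.10, 5.52 and 5.51 in the knockouts, and the other overlapped. They lay at 51.1% and 58.8% of control.

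The other hypoxia targets gave 5 tested members, all 5 with a mean below that of the controls and 0 past the threshold by gene. Ndrg1, a stress-responsive gene known from myelinating Schwann cells and from hypoxia, stood at 12.42, 12.26 and 12.50 in the controls and at 11.96, 11.90 and 11.53 in the knockouts. The groups did not overlap, and the difference was -0.60 (SE 0.16, adjusted p = 0.107). Of its 5 probe sets, 3 had no overlap, at 64.8% to 66.1% of control, and the 2 dimmest overlapped at 77.2% and 83.6%. Of the 5 Schwann cell and nerve markers named, of 7, 4 were lower without overlap and 1 was higher without overlap (15.1% and 13.0% of all genes tested). Of the 4 above the filter, 0 passed the threshold. The sum of these markers was 7764 to 9731 in the controls and 4501 to 7114 in the knockouts, and their part in the result was not tested.

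Higd1a, a HIF-induced protein of the inner mitochondrial membrane, gave different answers in its 3 probe sets. The brightest, which represents the gene, overlapped, at 11.60, 11.22 and 11.34 in the controls and 11.28, 10.62 and 11.19 in the knockouts (difference -0.36, SE 0.21, adjusted p = 0.362). With the macrophage level as a covariate this difference turned to 0.23, in a fit that cannot tell macrophage level and genotype apart. The middle one stood at 10.52, 9.75 and 10.27 against 9.38, 8.53 and 9.11. The dimmest stood at 9.38, 9.23 and 9.37 against 8.28, 7.72 and 7.83. In these last 2 every knockout lay below every control, at 44.3% and 38.2% of the control level. In a fit by probe set over 17473 probe sets, the dimmest was the single one of 56 member probe sets past the threshold (difference -1.39, adjusted p = 0.0219), where 0.298% of all probe sets were called lower and 1.21% higher. It was not past it without control 75, knockout 73 or knockout 86 (adjusted p = 0.0921, 0.0688 and 0.104). The probes of the 3 sets were not compared here, so which transcript forms they report is not known. The Higd1a window, at chr9:121857747-121858046 on the minus strand, is shown because this member had the lowest knockout minus control difference of any member probe set. It holds 3 core positions, of which 2 overlap in GCGTGCGTG.
Higd1a: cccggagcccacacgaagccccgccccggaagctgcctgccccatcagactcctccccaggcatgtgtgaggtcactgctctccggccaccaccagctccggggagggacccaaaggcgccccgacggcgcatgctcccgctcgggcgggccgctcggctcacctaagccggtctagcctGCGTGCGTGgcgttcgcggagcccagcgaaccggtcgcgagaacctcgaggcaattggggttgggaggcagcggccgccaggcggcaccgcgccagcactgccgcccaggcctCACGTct

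The plot of probe sets sets this gene beside others with several probe sets. Over all members, 13 of 56 probe sets above the filter had no overlap with knockouts lower (13.4% of all probe sets), spread over 7 genes, and 2 with knockouts higher (12.9%). Probe sets of 1 gene share its RNA and are not separate evidence.

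**Figure D3:**
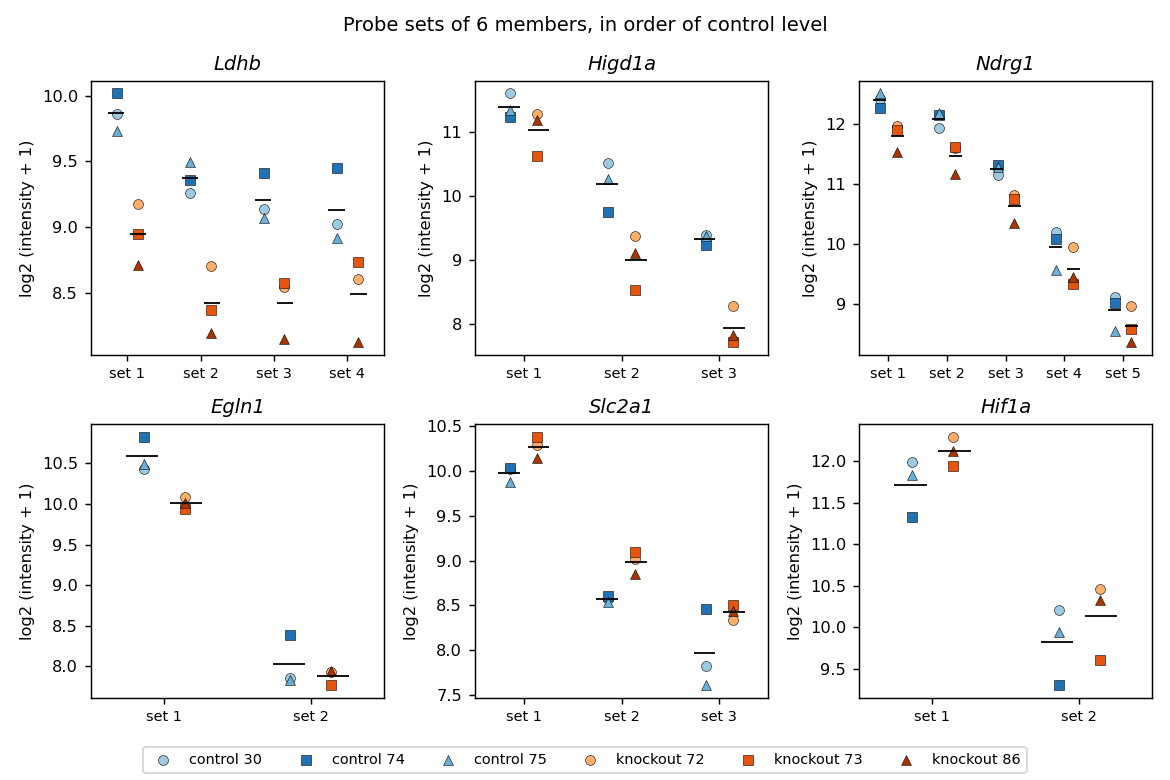
Probe sets above the filter of 6 members on the log2(intensity + 1) scale, numbered within each gene from the highest control mean down; points are arrays (blue, control; orange, knockout) and black bars are group means of 3 arrays. The knockouts lie below the controls in all 4 sets of Ldhb, in sets 2 and 3 of Higd1a and in sets 1 to 3 of Ndrg1, whereas set 1 of Higd1a overlaps.

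Bnip3, Adm and Vegfa, widely used readouts of HIF activity, were spread more within the controls than between the groups. Bnip3, which promotes removal of mitochondria, stood at 9.26, 10.68 and 10.53 in the controls and 9.35, 9.73 and 9.29 in the knockouts (difference -0.70, SE 0.37, adjusted p = 0.324). Adm, the gene of the vasodilator peptide adrenomedullin, stood at 7.83, 9.27 and 8.88 against 8.20, 8.13 and 7.45 (difference -0.73, SE 0.39, adjusted p = 0.321). In both, controls 74 and 75 were above all knockouts and control 30 was not. Vegfa, the main growth factor of blood vessels, stood at 9.09, 9.84 and 8.72 against 9.47, 8.96 and 9.15, a difference of -0.02 (SE 0.30, 95% interval -0.72 to 0.68). A second, dimmer Vegfa probe set overlapped at 76.8% of control. Car9 and Ankrd37, both induced by HIF, lay under the filter and overlapped at 112% and 100% of control.

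Control 74 thus stood apart among these genes. Its level was the highest of the 6 arrays in 13 of the 25 members (52.0%), against 24.6% of all genes tested. Its median deviation from each gene's mean over the 6 arrays was 0.33 on the log2 scale over the members and 0.01 over all genes. Over the 5 other hypoxia targets it was 0.64 in control 74 and 0.41 in control 75, and -0.12 in control 30. The knockouts were at -0.09, -0.19 and -0.52 for these targets. The median difference of all 25 members was -0.15 without control 74, and also without knockout 73 or without knockout 86. The spread within the controls was wider than within the knockouts in 17 of 25 members (median SD 0.35 and 0.15), and in 61.6% of all genes (median SD 0.21 and 0.17).

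The sum of white fat cell markers was also highest on control 74, followed by control 75. Single markers did not all keep this order: Lep stood at 8.17 on control 75 and 7.45 on control 74. The 6 named of 8 white adipocyte markers summed to 15630, 39182 and 28742 intensity units in controls 30, 74 and 75 and to 25878, 24386 and 15876 in the knockouts. Controls 74 and 75 were the highest, while control 30 and knockout 86 were the lowest. None of the 6 passed the threshold and all 6 overlapped. Of the 4 brown adipocyte markers, Ucp1, which uncouples respiration in brown fat, was at 8.45 on control 74 and between 3.67 and 6.12 on the other arrays, and Cidea was at 9.65 there and between 4.44 and 7.28 elsewhere. Cox7a1 was lower in the knockouts without overlap, as were these 2 (15.1% of all genes tested). Dio2, the thyroid hormone-activating deiodinase and the 1 of the 4 above the filter, ran the other way, at most 9.12 in the controls and at 11.03, 9.93 and 10.46 in the knockouts (difference 1.87, adjusted p = 0.0928). The sums of the 4, highest on knockout 72, were 440 to 1890 in the controls and 1072 to 2191 in the knockouts. With the white adipocyte level as a covariate, 2 members were lower past the threshold, Ldhb (-0.89, adjusted p = 0.0369) and Pfkfb3 (-0.84, adjusted p = 0.0318), and Hk2 turned to 0.08. Beyond this covariate, the part of fat cell RNA in the members' levels was not tested.

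**Figure D4:**
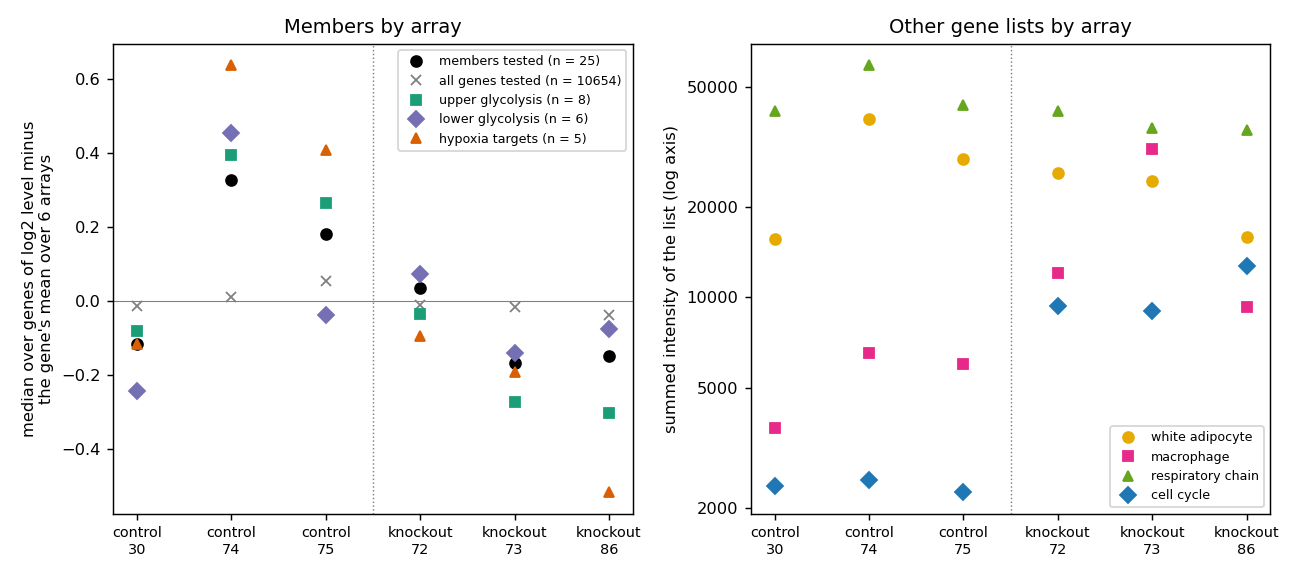
Left, the median over genes of each array's log2 level minus the gene's mean over 6 arrays, for the 25 members, 3 of their role groups and all 10654 genes. Right, the summed intensity of 4 other gene lists on a log axis. Control 74 has the highest member median (0.33) and the highest white adipocyte sum (39182), while the macrophage and cell cycle sums are higher in every knockout than in any control.

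Markers of macrophages and of dividing cells ran the other way. All 13 macrophage markers named, of 14, were higher in the knockouts, 8 of them without overlap (13.0% of all genes tested). Of the 11 above the filter, 0 passed the threshold. Their sum was 3685 to 6549 in the controls and 9317 to 31143 in the knockouts. Cell cycle genes summed to 2247 to 2475 and to 9017 to 12684. With the macrophage level as a covariate, no member passed the threshold, the median of the members was -0.32 and Ldhb stood at -1.02 (adjusted p = 0.119). Because the macrophage sums did not overlap between the groups, this covariate shares much of the group difference. The fit therefore cannot tell macrophage level and genotype apart, and a lost call there has no reading. Respiratory chain genes, named for comparison, were lower in 12 of 12, 6 of them without overlap (15.1% of all genes tested). Their sums were 41555 to 59064 in the controls and 36012 to 41593 in the knockouts. Smooth muscle markers, all 8 above the filter, were lower in 7 of 8. Of these, 3 (Lmod1, Myh11 and Tagln) had no overlap (15.1% of all genes tested) and 0 were past the threshold. Lmod1, the gene of an actin filament protein, had the lowest difference at -1.20 (adjusted p = 0.0567). The smooth muscle sums were 50502 to 65170 in the controls and 44720 to 53143 in the knockouts. The part of these markers in the members' lower values was not tested. Adventitial fibroblast markers were higher in 6 of the 7 named of 8. Of these, 3 (Lum, Pdgfra and Serpinf1) had no overlap (13.0% of all genes tested) and 0 were past the threshold. Their sums were 20899 to 29667 in the controls and 28566 to 32979 in the knockouts. No named marker of any list was at the lowest value of the table on all 6 arrays. Itgb1 itself stood at 60.1% of control (difference -0.73, adjusted p = 0.127) and Tagln at 79.4% (adjusted p = 0.231).

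The remaining genes of these pathways were followed through 6 lists of 109 genes, of which 97 were named on the array and 85 tested. Of the 85, 1 was higher and 2 were lower past the threshold, beside 1.76% and 0.657% of all genes. Their median difference was -0.08. In the group that feeds pyruvate into mitochondria 11 of 12 genes were below the control mean, with a median of -0.65 and 1 past the threshold. Control 74 was the highest array in 9 of these 12, beside 24.6% of all genes; the part of that array's high fat cell and respiratory chain levels in this was not tested. Pdp2, a phosphatase that reactivates pyruvate dehydrogenase, fell from 7.79, 8.04 and 7.89 to 7.12, 6.81 and 6.90 (difference -0.96, SE 0.14, adjusted p = 0.0234). It kept an adjusted p under 0.05 without control 74 (0.046) and in no other fit of 5 arrays (highest 0.0952). Pdk2, a kinase with the opposite action, stood at 6.68, 7.94 and 7.49 against 6.04, 6.24 and 6.09 (difference -1.24, SE 0.30, adjusted p = 0.0902). It was past the threshold without control 30 (-1.59, adjusted p = 0.0218), the control nearest to the knockouts. Over 19 alternative limma fits Pdk2 passed in 3. Its differences there ran from -1.81 to -0.94, with adjusted p-values up to 0.232.

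Among 22 other genes of glycolysis, glycogen and glucose uptake, 0 passed the limma threshold (6 had an unadjusted p under 0.05, 2 higher and 4 lower). The 2 with the smallest p were Pygb, the brain form of glycogen phosphorylase (-0.90, SE 0.21, adjusted p = 0.084), and Slc2a4, the insulin-responsive transporter GLUT4 (-1.20, SE 0.29, adjusted p = 0.087). Slc2a4 stood at 10.46, 11.08 and 10.64 in the controls and 10.05, 9.51 and 9.01 in the knockouts, without overlap, whereas Slc2a1 above stood higher in the knockouts. The pentose phosphate pathway had 0 of 7 past the threshold (0 at an unadjusted p under 0.05), with Tkt (transketolase) at -0.60 and Taldo1 (transaldolase) at -0.46. Gluconeogenesis had 0 of 3 (0 at an unadjusted p under 0.05), with Pck1, a fat and liver enzyme, at -0.99 (SE 0.76) and G6pc3 at -0.17.

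The other HIF regulators had 0 of 11 past the threshold (1 higher and 1 lower at an unadjusted p under 0.05). These were the ubiquitin ligases Siah2, at 0.92 (SE 0.30, adjusted p = 0.147), and Siah1a, at -0.47 (SE 0.14, adjusted p = 0.125), which are known to act on the prolyl hydroxylases. Of 30 further hypoxia-inducible genes, 1 rose and 1 fell past the threshold (1.76% and 0.657% of all genes). At an unadjusted limma p under 0.05, 6 were higher and 2 lower (9.86% and 11.5% of all genes). Groups did not overlap in 6 with knockouts higher and 3 with knockouts lower (13.0% and 15.1% of all genes). Their median difference was 0.07, unlike the -0.60 of the 5 hypoxia targets among the members. The difference between these medians was not tested. Anln, the gene of the cytokinesis protein anillin, rose by 1.90 (SE 0.22, adjusted p = 0.0133). Cell cycle genes rose alongside, 8 of the 10 tested being past the threshold (1.76% of all genes). Anln was not past the threshold without control 75 (adjusted p = 0.0655) or without knockout 72 (0.0546). Mxi1, a HIF-induced antagonist of MYC, stood at 9.70, 9.88 and 9.80 against 9.08, 9.24 and 8.91, and fell by 0.71 (SE 0.13, adjusted p = 0.0481); without any 1 array its adjusted p was 0.0776 to 0.174.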

How the data were processed

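Total RNA was labelled with biotin and hybridised to 1 array per animal. The deposited values are linear intensities per probe set; the authors' probe summary and scaling steps are not given in the sources used here. Array medians ran from 62.8 to 72.6 units, no detection calls were given, and precision is limited by 3 arrays in each group. Names came from the platform's 2016 annotation (probe sets: 34945 with 1 symbol, 932 with several, 9160 with none); 34741 gene identifiers were found in a GRCm38.p6 table, with 0 changed symbols.

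From these, log2(intensity + 1) was computed, followed by quantile normalization. Named probe sets with a mean under their median (6.50) were left out, leaving 17473, and the one with the highest mean represented each of 10654 genes. All differences are knockout minus control on this scale, which understates changes of low signals. Groups were compared with limma 3.58.1 in R 4.3.3 (lmFit, eBayes, 2-sided, Benjamini-Hochberg over all genes, threshold 0.05). Single probe sets and isozyme pairs were compared by exact 2-sided permutation, with a smallest p of 0.1. Summed marker levels are normalized intensities added over a list. In 20 simulated data sets of 10654 genes, 51.6% of genes changed by 1 and 91.9% of those changed by 2 on the log2 scale were recovered, with 5.17% false calls. The simulated noise was independent between genes and equal in both groups, unlike the wider control spread reported above, so these rates may not hold for the real arrays. Promoter windows come from RefSeq (GRCm38.p6). The p-values rest on the spread between these 6 animals, which in limma is moderated by the spread over all genes tested. Nothing in the labels says whether any of the animals shared a litter. The 32 members, the gene lists and the isozyme pairs were chosen with earlier results of these data known. Every member is named; of the other lists, the genes past the threshold or else the 2 with the smallest p. Alternatives were other filters, probe set choices, normalizations, priors and weights, 2 covariates and arrays left out.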

Additional observations from a re-analysis of the deposited data

How the results depend on the processing

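No paired analysis was run. The animal numbers of the controls (30, 74 and 75) and knockouts (72, 73 and 86) share none, and the labels give no pairing by litter or batch. No member was past the threshold in the higher direction under any alternative run. In the lower direction the 1 member became 0 with no filter, with probe sets averaged by gene, with the macrophage covariate, and without control 74 and knockout 86. It also became 0 with the test by probe set, counted on the representing probe set of each gene. The dimmest Higd1a probe set, past the threshold in that fit, is not in this count. The count became 5 with array weights, 2 with the white adipocyte covariate and 3 at an adjusted p under 0.1. It was 0 to 1 when 1 array was left out (the 1, without control 30, was Pfkfb3). Array weights also added the most calls over all genes (547 higher and 584 lower, beside 188 and 70). The other pathway genes past the threshold, 1 higher and 2 lower, became 6 and 8 with array weights, 2 and 4 with the white adipocyte covariate, and 2 and 7 at an adjusted p under 0.1. The 2 lower ones became 0 with no filter, with the macrophage covariate and without control 74 and knockout 86, and 1 with the filter at the 70th percentile, the probe set without a suffix, no normalization and the test by probe set. With 1 array left out these counts were 0 to 2 higher and 0 to 1 lower. The median member difference was -0.48 to -0.15 with 1 array left out and -0.32 to -0.09 elsewhere. No normalization moved the median of all probe sets by 0.056 (log2).

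Differences that changed sign, in log2 units, all belonged to genes not past the threshold. With array weights they were Slc16a1 0.31, Hk2 0.61, Pfkp 0.048, Pkm 0.053 and Vegfa 0.40. With no normalization they were Hk1 0.013 and Vegfa 0.019, and with median centring Pgam1 -0.035. With the macrophage covariate they were Hk1 0.13, Pfkp 0.11, Ldha -0.15, Vegfa 0.036 and Higd1a 0.23, and with the white adipocyte covariate Hk2 0.078 and Vegfa 0.043. With probe sets averaged by gene they were Pfkp 0.31 and Epas1 0.0083. Without control 74 and knockout 86 they were Slc16a1 0.58, Hk2 0.72, Pkm 0.15, Vegfa 0.31, G6pc3 0.082 and Taldo1 0.10. With 1 array left out, values ran from -0.65 to 0.20 for Slc16a1, -0.21 to 0.14 for Hk1, -0.75 to 0.53 for Hk2, -0.12 to 0.065 for Pfkp, -0.32 to 0.13 for Pkm, -0.12 to 0.26 for Ldha, -0.27 to 0.29 for Vegfa and -0.33 to 0.0025 for G6pc3. The causes were not tested. The filter over all probe sets, the pair of arrays left out together and the single probe set fits were chosen after seeing the data.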
